A study of Mus musculus with 14 samples.

Results

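Collagen chain genes encode the subunits of the collagens, the main structural proteins of the extracellular matrix, and were followed here in mouse embryonic fibroblasts deprived of amino acids or of glucose. A gene was included if its symbol had the form of a collagen chain (Col, a type number, a, a chain number) and its best-covered transcript held at least 140 reads summed over all libraries. Of 44 such symbols among 40800 gene symbols, 26 met the rule and all 26 passed the filter on low counts. Among the other 18, 17 held fewer reads and Col11a2, with 11332 reads, was set apart by the rule. Just above the minimum were Col4a3 (205 reads), Col4a4 (554) and Col9a3 (594), and just below it Col6a5 (123), Col17a1 (104), Col14a1 (99) and Col6a4 (93). The 26 genes fall into 9 fibrillar chains, 5 type IV chains of basement membranes, Col18a1 of the basement membrane zone, Col7a1 of anchoring fibrils, 3 type VI chains, 4 fibril-associated chains and 3 short-chain network collagens.

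Total RNA was sequenced in 14 libraries, 2 for each of 7 groups: a control at 0 h, cells without amino acids for 3, 6 or 12 h, and cells without glucose for 3, 6 or 12 h. All cells were grown in high-glucose DMEM with serum, plated and left for 1 day. Starved cells were washed and given medium lacking amino acids or glucose with dialyzed serum, then frozen with dialyzed serum. The control kept its medium and was frozen with ordinary serum, so every comparison with the control also contains that difference in handling, which the comparisons of amino acid with glucose starvation do not. No fed group was taken at 3, 6 or 12 h. Comparisons with the control, and those of 12 h with 3 h within a starvation, therefore also contain added time in culture, which cannot be told apart from starvation. The design text also mentions a transfection, which no sample is tied to. The labels give no strain, age or clone for the fibroblasts. No label calls both libraries of a group separate cultures, so the p-values cover the spread among these libraries alone, possibly a technical one.

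Every collagen is a trimer of alpha chains whose Gly-X-Y repeats wind into a triple helix, so its synthesis draws heavily on glycine and proline. Chains are hydroxylated, folded and trimerised in the endoplasmic reticulum, exported in large carriers, trimmed outside the cell and crosslinked. Fibroblasts make most of the type I, III and V fibrils of connective tissue.

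The promoters of genes that frame the results are shown first, from RefSeq (GRCm38.p6). These genes were picked by their fold changes below, and a link between promoter letters and direction was not tested. Each run covers 150 bases before to 20 bases after the annotated start, 5′ to 3′ on the gene's strand, and capitals mark the CCAAT box (ATTGG where it lies on the other strand) or TATAAA. Col1a2 (chr6:4505468-4505637, plus strand) fell in all 6 comparisons with the control, Col5a3 (chr9:20815048-20815217, minus strand) rose in all 6, and Col3a1 (chr1:45311388-45311557, plus strand) had the most negative fold change at 12 h without amino acids.
Col1a2: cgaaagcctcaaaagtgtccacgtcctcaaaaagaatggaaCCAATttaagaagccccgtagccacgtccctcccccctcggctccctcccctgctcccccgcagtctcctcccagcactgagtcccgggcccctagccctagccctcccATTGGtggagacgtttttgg
Col5a3: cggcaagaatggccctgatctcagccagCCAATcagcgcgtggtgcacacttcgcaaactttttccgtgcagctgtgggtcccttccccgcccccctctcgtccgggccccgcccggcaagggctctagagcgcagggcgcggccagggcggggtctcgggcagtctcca
Col3a1: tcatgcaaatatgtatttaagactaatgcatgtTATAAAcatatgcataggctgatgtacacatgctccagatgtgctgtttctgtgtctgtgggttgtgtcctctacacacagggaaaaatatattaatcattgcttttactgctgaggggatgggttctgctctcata

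Col4a1 and Col4a2 lie head to head on opposite strands, and their annotated transcripts overlap at the start by 22 bases, in capitals in the run at chr8:11312801-11312830 (plus strand), so reads there cannot be assigned to either gene without strand.
Col4a1 and Col4a2: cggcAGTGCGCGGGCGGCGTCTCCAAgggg
Windows from 250 bases before to 50 after the start were found for 20 of the 26 genes, and 6 motifs were searched on both strands. GGGCGG, the GC box bound by Sp factors, occurred in 14 of the 20 windows (70%) against 38.2% of 27025 genes, and CCAAT in 9 (45%) against 41.1%. TATAAA occurred in 2 (10%), Col3a1 and Col10a1, against 15.7%, and the AP-1 site TGANTCA in 1 (5%), Col6a1, against 8.97%. TGATGNAA, the core of the element bound by Atf4 with C/EBP factors, occurred in 0 of 20 against 4.51%, and the E-box CACGTG in 0 against 8.09%. The 27025 genes were not filtered for expression, while the 20 had met the read minimum, so these shares come from unlike sets. A match is a description of letters and not a site of binding.

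Libraries held 35270767 to 55349659 reads, of which mitochondrial genes took 3.95% to 6.58% and the 26 collagen genes 0.172% to 0.774%. Of 10 fibroblast markers, 8 were at 1 CPM (counts-per-million) or more in every library, while Thy1 and Fap were under 1 CPM in all of them; their summed level was 4444 to 4861 CPM in the control, 6233 to 6487 after 3 h and 2254 to 2438 after 12 h without amino acids, and 6608 to 6745 after 3 h and 4532 to 4566 after 12 h without glucose. Of the 8 tested, 3 were higher and 2 lower at 3 h and 2 higher and 6 lower at 12 h without amino acids, and 6 higher and 1 lower at 3 h and 1 higher and 5 lower at 12 h without glucose, with medians of −1.29 and −0.66 at 12 h; the part of these markers in the collagen values was not tested. All 6 epithelial and all 4 adipocyte markers were under 1 CPM in every library, as were 6 of 9 chondrocyte, 5 of 6 endothelial, 3 of 5 osteoblast and 3 of 5 macrophage markers. In bulk RNA, fewer cells of a type and less RNA per cell cannot be told apart. Gene levels below are CPM scaled by edgeR's trimmed mean (TMM) factors, levels between genes are compared only as CPM per kilobase of transcript, and a gene is called higher or lower at an adjusted p under 0.05 in edgeR's quasi-likelihood test, with Benjamini-Hochberg adjustment over the 17696 genes tested in each comparison.

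In the control, type I collagen led the levels per kilobase, with 397 ± 32 CPM per kilobase (SD, n = 2) for Col1a1 and 216 ± 9.8 for Col1a2. Col5a2 of type V followed at 128 ± 4.6 and Col4a1 of type IV at 87.2 ± 1.6. Col5a1 (72.2 ± 3.4) and Col6a1 of type VI (69.6 ± 5.2) were next and did not differ beyond their spread. Col4a2 stood at 40.4 ± 3.8, Col12a1 at 31.8 ± 1.3, Col6a2 at 21.3 ± 1.0 and Col8a1 at 19.8 ± 1.6, the last pair again within their spread. Col3a1, abundant in many fibroblasts of skin and vessels, was low in these cells at 2.70 ± 0.11 CPM per kilobase. The cartilage chains Col2a1 (0.916 ± 0.14) and Col10a1 (1.07 ± 0.11) were lower still, and Col9a3, Col20a1, Col4a4 and Col4a3 lay between 0.0230 and 0.258.

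Without amino acids most collagen messages were lower at 6 h, and the fall was wider at 12 h. At 3 h 6 of the 26 genes rose and 11 fell, where 27.9% of all genes tested rose and 32.1% fell, and the median log2 fold change of the 26 was −0.11 beside −0.07 for all genes (−0.20 without control replicate 2). The split at 3 h depended on scaling. It was 7 higher and 9 lower with RLE factors (all genes: 29.6% and 30.2%) and 6 higher and 15 lower with library totals (all genes: 21.6% and 41.5%). At 6 h 5 rose and 19 fell (all genes: 32.3% and 33.3%), with a median of −0.57 beside −0.01. At 12 h 3 rose and 21 fell (all genes: 34.9% and 32%), with a median of −1.86 beside 0.06. The 3 genes that rose at 12 h were Col5a3, Col4a4 and Col20a1, of which Col4a4 met the read minimum only through the libraries without amino acids. The summed level of all 26 genes was 7359 and 6815 CPM in the control libraries and averaged 5347 ± 90, 3668 ± 36 and 1558 ± 89 CPM at 3, 6 and 12 h, the last 4.55-fold below the control.

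Without glucose the early response went both ways and the fall came late. At 3 h 10 of the 26 genes rose and 8 fell, where 20.3% of all genes rose and 23.1% fell, and the median was 0.10 beside −0.04. Scaling by library totals alone shifted the median of all genes by −0.17 there and turned the split to 9 higher and 11 lower. At 6 h 10 rose and 9 fell (all genes: 23.3% and 24.2%), with a median of −0.07 beside −0.01, which became −0.15 without control replicate 1 and −0.23 and −0.19 without glucose 6 h replicates 1 and 2. With library totals the split at 6 h was 8 higher and 10 lower (all genes: 16.4% and 33.2%). At 12 h 2 rose, Col5a3 and Col20a1, and 20 fell (all genes: 30.4% and 28%), with a median of −0.65 beside 0.01. The summed level averaged 7207 ± 353, 6355 ± 58 and 3964 ± 35 CPM at 3, 6 and 12 h, the last 1.79-fold below the control.

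**Figure D1:**
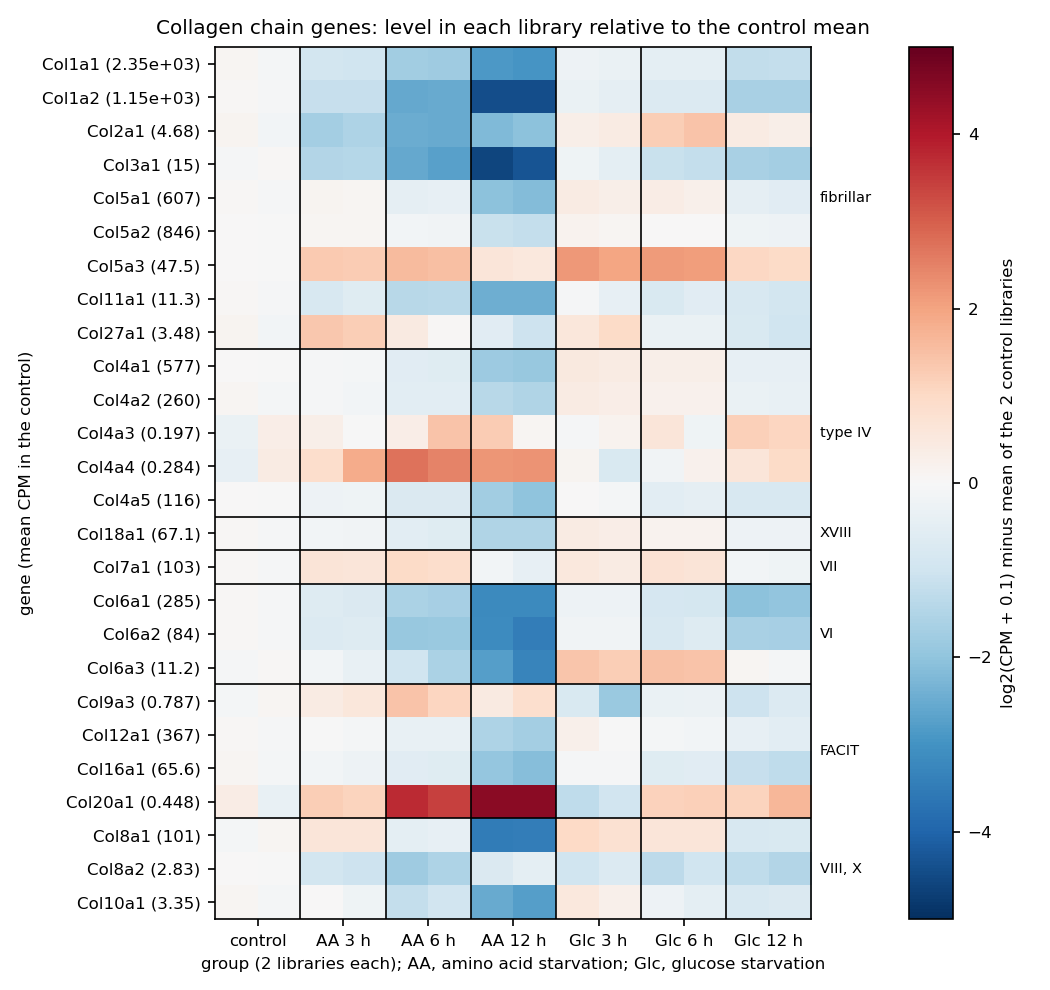
Level of each of the 26 collagen genes (rows, grouped by class) in each of the 14 libraries (columns, by group), as log2(CPM + 0.1) minus the mean of the 2 control libraries; the colour bar gives the log2 difference. Most rows are below the control in the libraries at 12 h without amino acids, with Col5a3, Col4a4 and Col20a1 among the exceptions.

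The direct comparison of both starvations at the same time has the same medium change and serum on both sides, per the labels. At 3 h 5 of the 26 genes were higher without amino acids than without glucose and 17 were lower, where 26.7% and 27.7% of all genes were. At 6 h 5 were higher and 18 lower (all genes: 31.5% and 32.3%), and at 12 h 4 were higher and 19 lower (32.5% and 31.6%). The median difference of the 26 was −0.36, −0.73 and −1.16 at 3, 6 and 12 h, beside −0.03, −0.01 and 0.03 for all genes. The 4 genes higher without amino acids at 12 h were Col20a1, Col9a3, Col4a4 and Col8a2, all at or under 12.0 CPM in every group. Of these, Col4a4 met the read minimum only through the libraries without amino acids. Col8a2 (0.82) lost the call without amino acid 12 h replicate 2 (0.65) or glucose 12 h replicate 2 (0.72).

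**Figure D2:**
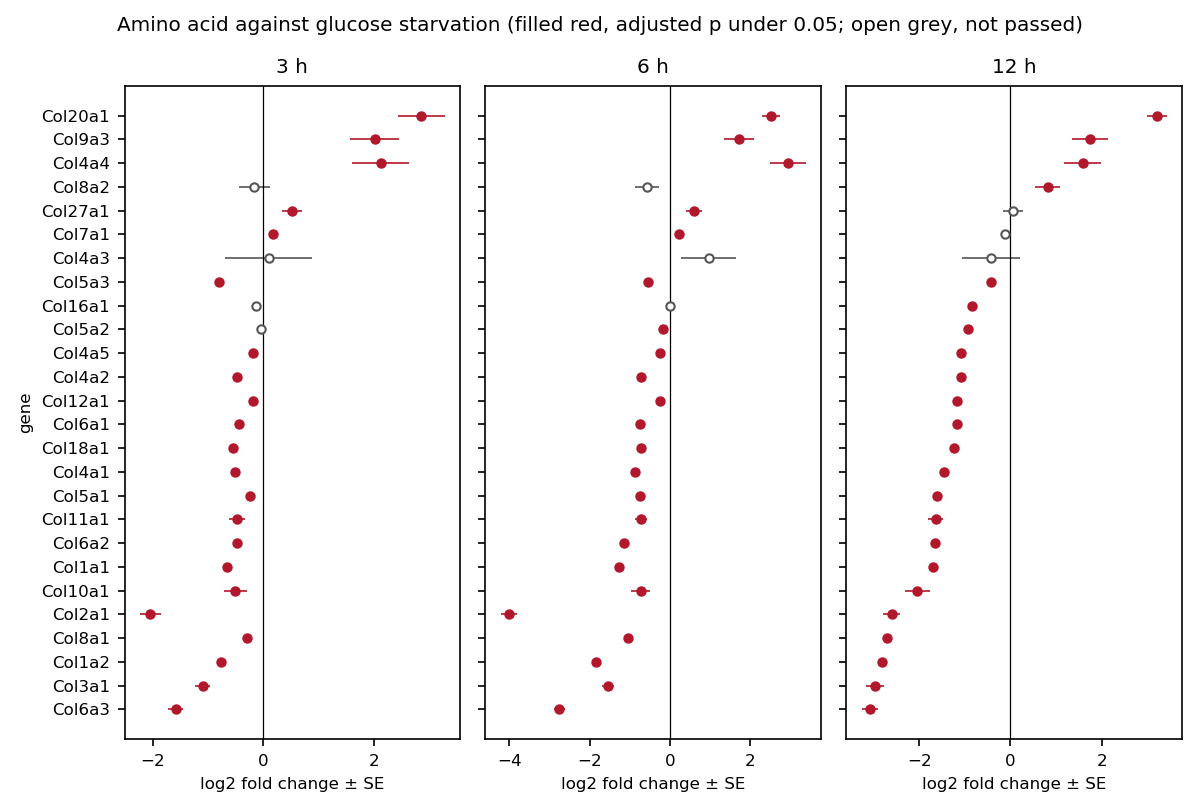
Log2 fold change of amino acid against glucose starvation for each collagen gene at 3, 6 and 12 h (points, with bars of 1 standard error from edgeR). The points of Col1a2 and Col8a1 move further below 0 at each time, to −2.80 and −2.70 at 12 h, while those of Col20a1 stay above 0.

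Type I collagen, the bulk of fibrils in skin, bone and tendon, is built from Col1a1 and Col1a2 chains. Col1a1 stood at 2486 and 2219 CPM in the control, 1231 and 1192 after 3 h without amino acids, 705 and 694 after 6 h and 322 and 301 after 12 h. Without glucose it stood at 1951 and 1874, 1689 and 1664, and 989.6 and 1032 CPM. Each time point lay below the one before it in both starvations with no overlap of libraries. The log2 fold change against the control was −2.92 ± 0.06 (SE) at 12 h without amino acids (edgeR adjusted p = 1.07e-25) and −1.22 ± 0.06 at 12 h without glucose (edgeR adjusted p = 4.68e-17).

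Col1a2 fell further than its partner chain. Its level was 1192 and 1118 CPM in the control, then 521 and 518, 197 and 202, and 53.8 and 52.9 CPM at 3, 6 and 12 h without amino acids. Without glucose it was 908 and 853, 723.5 and 714, and 373 and 372.7 CPM. No group overlapped the group before it in either starvation, and at 12 h the libraries without amino acids were the lowest of all 14. The fold changes at 12 h were −4.44 ± 0.06 without amino acids, a 21.6-fold fall (edgeR adjusted p = 3.18e-29), and −1.63 ± 0.05 without glucose (edgeR adjusted p = 9.56e-21), and the difference between starvations was −2.80 ± 0.06 (edgeR adjusted p = 1.12e-25).

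Col3a1, the single chain of type III collagen, which co-assembles with type I in elastic tissues, showed the same order at a much lower level. It was at 14.6 and 15.5 CPM in the control, 5.33 and 5.59, 2.46 and 2.19, and 0.529 and 0.661 CPM at 3, 6 and 12 h without amino acids, and 12.9 and 10.6, 6.96 and 6.56, and 4.77 and 4.57 CPM without glucose. The libraries at 12 h without amino acids were the lowest and overlapped no other group. The fold change there was −4.65 ± 0.18 (edgeR adjusted p = 2.25e-19), against −1.68 ± 0.14 at 12 h without glucose (edgeR adjusted p = 1.31e-11). Its call at 3 h without glucose (−0.36) was lost without control replicate 1 (−0.40), control replicate 2 (−0.32) or glucose 3 h replicate 2 (−0.23) and with DESeq2 (−0.32). In GRCm38 its exons share 141 bases with Gm47302.

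Type V chains, which nucleate type I fibrils and limit their diameter, did not move as one. Col5a2, the most abundant of them, was at 867 and 824 CPM in the control, 913 and 897, 765 and 752, and 394 and 367 CPM at 3, 6 and 12 h without amino acids, and 963 and 911, 865 and 862, and 731.5 and 715 CPM without glucose. The libraries at 12 h without amino acids were the lowest of all 14, at a fold change of −1.15 ± 0.05 (edgeR adjusted p = 1.83e-17) against −0.23 ± 0.05 at 12 h without glucose (edgeR adjusted p = 0.000558). Its smaller calls were lost in some fits that left 1 library in a group. At 6 h without amino acids (−0.16) the call was lost without amino acid 6 h replicate 2 (−0.15) or control replicate 1 (−0.12). At 3 h without glucose (0.15) it was lost without control replicate 2 (0.11) or glucose 3 h replicate 1 (0.11), and scaling by library totals turned the value to −0.02.

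Col5a1, its main partner, stood at 627 and 587 CPM in the control, 658 and 642, 448 and 453, and 147 and 134 CPM without amino acids, and 812 and 736, 775 and 731, and 446 and 409 CPM without glucose. The glucose libraries at 3 and 6 h and those at 3 h without amino acids were above every control library. The change at 3 h without amino acids was not called. Libraries at 12 h of both starvations were below the controls. It rose at 3 h without glucose by 0.35 ± 0.06 (edgeR adjusted p = 2.02e-05) and had a fold change of −2.12 ± 0.06 at 12 h without amino acids (edgeR adjusted p = 4.6e-22). In GRCm38 its exons share 99 bases with 2810430I11Rik and 113 bases with Gm13372.

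Col5a3, a type V chain of narrower tissue range, rose in all 6 comparisons with the control. It was at 47.7 and 47.3 CPM in the control, 116.5 and 115.6, 142 and 136, and 72.9 and 68.2 CPM without amino acids, and 217 and 187, 206 and 202, and 97.9 and 92.1 CPM without glucose. Every starved library exceeded both controls, and at each time the glucose libraries exceeded those without amino acids. Without glucose the fold change was 2.08 ± 0.07 at 3 h and 2.10 ± 0.07 at 6 h (edgeR adjusted p = 8.42e-21 and 9.34e-21), with overlapping libraries, and 1.0005 ± 0.06 at 12 h. Without amino acids it was 1.55 ± 0.06 at 6 h (edgeR adjusted p = 2.41e-18) and 0.57 ± 0.06 at 12 h. The difference between starvations was −0.80, −0.56 and −0.43 at 3, 6 and 12 h, each called.

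**Figure D3:**
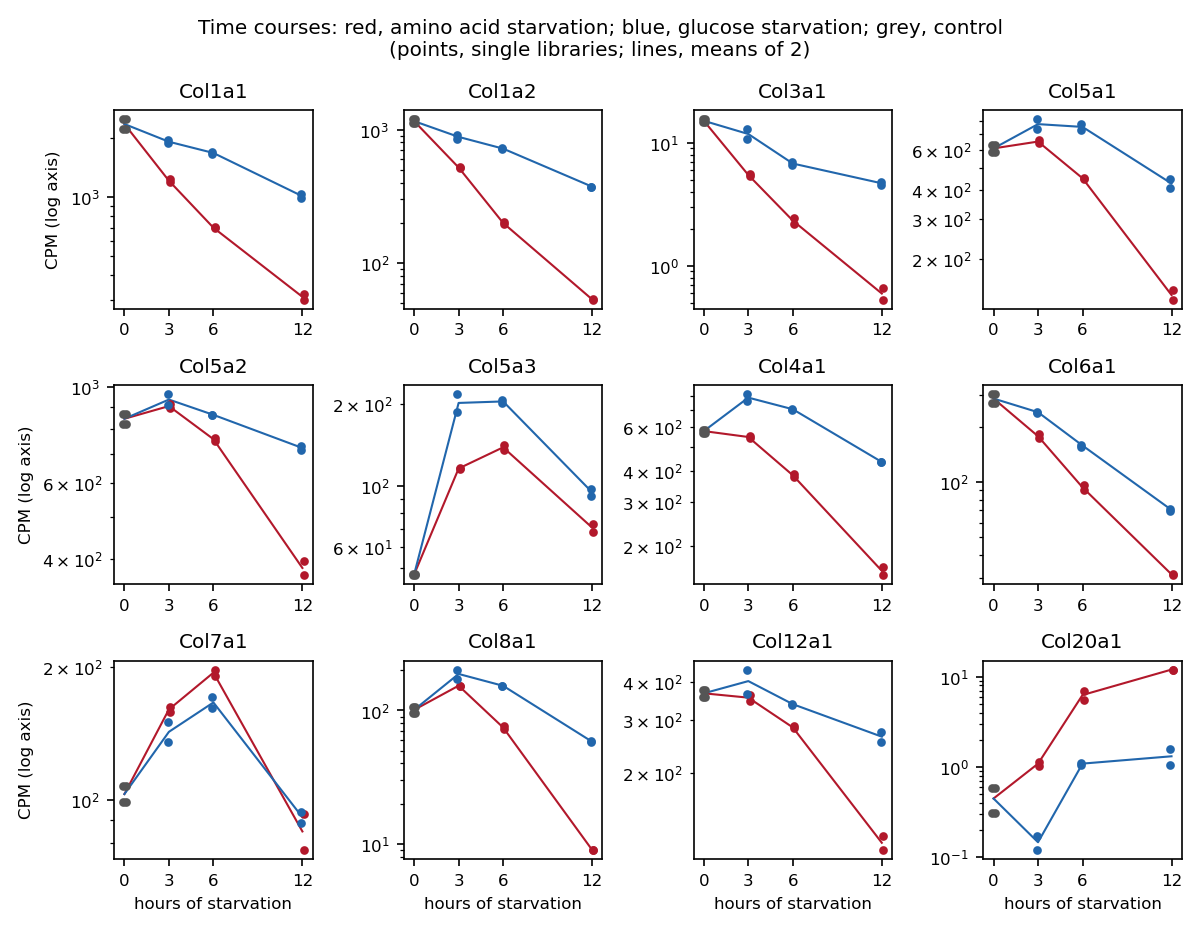
Levels of 12 collagen genes in CPM (log axis) against hours of starvation, with each library as a point and the group mean as a line, for amino acid and glucose starvation from the shared control at 0 h. Col1a1, Col1a2, Col3a1 and Col6a1 decline from the control in both, Col5a3 lies above the control throughout, and Col20a1 reaches 12.0 CPM at 12 h without amino acids.

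The remaining fibrillar chains are known from cartilage and were at 12.8 CPM or less. Col2a1, the chain of type II collagen, was at 5.19 and 4.16 CPM in the control, 1.36 and 1.51, 0.756 and 0.725, and 0.915 and 1.04 CPM without amino acids, but 5.66 and 6.24, 11.2 and 12.8, and 6.203 and 5.71 CPM without glucose. The groups without amino acids and those without glucose lay on opposite sides of the control libraries. At 6 h it fell by 2.66 ± 0.21 without amino acids (edgeR adjusted p = 2.76e-12) and rose by 1.36 ± 0.16 without glucose (edgeR adjusted p = 3.23e-08), a difference of −4.02 ± 0.20 (edgeR adjusted p = 1.33e-16). Its values at 3 and 12 h without glucose were 0.35 and 0.35 and did not pass.

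Col11a1, which joins type II and type V fibrils, was at 11.8 and 10.8 CPM in the control and at 1.99 and 1.96 CPM after 12 h without amino acids, a fold change of −2.51 ± 0.16 (edgeR adjusted p = 1.91e-14), against 6.43 and 5.90 CPM and −0.87 ± 0.14 after 12 h without glucose (edgeR adjusted p = 4.55e-06). Col27a1, a fibrillar chain of developing cartilage, was at 3.86 and 3.11 CPM in the control, 8.94 and 8.16 after 3 h without amino acids and 2.30 and 1.62 after 12 h. It rose at 3 h without amino acids (1.29 ± 0.19, edgeR adjusted p = 8.78e-07) and fell at 12 h in both starvations (−0.83 and −0.89). Its rise at 3 h without glucose (0.77) was lost without glucose 3 h replicate 2 (0.57). Chondrocyte markers summed to 10.4 to 10.97 CPM in the control, 62.4 to 65.8 at 3 h, 19.4 to 19.5 at 6 h and 7.38 to 7.46 at 12 h without amino acids, and 49.5 to 49.7, 15.8 to 16.0 and 7.45 to 7.54 without glucose. Most of that was Sox9, with Acan at 0 in the control, and the part of these markers in the cartilage chains' values was not tested.

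In all, of the 9 fibrillar chains 1 rose and 8 fell at 12 h without amino acids (median −2.25; all genes: 34.9% and 32%), and 1 rose and 7 fell at 12 h without glucose (median −0.87; all genes: 30.4% and 28%). At 3 h the counts were 2 and 5 without amino acids (median −0.70; all genes: 27.9% and 32.1%) and 4 and 3 without glucose (median 0.15; all genes: 20.3% and 23.1%). Compared at 12 h, 8 of 9 were lower without amino acids than without glucose and 0 higher (all genes: 31.6% and 32.5%), with Col27a1 at 0.06 not passing. Col11a2, a fibrillar chain set apart by the rule, is outside these counts and went the other way. At 12 h it had log2 fold changes of 3.67 without amino acids, −0.97 without glucose and 4.64 between the starvations, all called.

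Type IV collagen forms the sheet-like network of basement membranes, mostly from Col4a1 and Col4a2. Col4a1 was at 585 and 570 CPM in the control, 550 and 543, 389 and 380, and 165 and 154 CPM without amino acids, and 809 and 762, 701 and 710, and 436 and 433 CPM without glucose. Glucose libraries at 3 and 6 h exceeded the controls, and no library without amino acids did. The fold changes were −1.86 ± 0.05 at 12 h without amino acids (edgeR adjusted p = 3.17e-22), 0.44 ± 0.05 at 3 h without glucose (edgeR adjusted p = 4.62e-08) and −0.41 ± 0.05 at 12 h without glucose (edgeR adjusted p = 9.28e-08).

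Col4a2 followed it, at 278 and 243 CPM in the control, 98.9 and 91.8 after 12 h without amino acids, 347 and 328 after 3 h without glucose and 204 and 202 after 12 h. Its fold changes at those points were −1.45 ± 0.06 (edgeR adjusted p = 1.52e-18), 0.37 ± 0.06 (edgeR adjusted p = 5.84e-06) and −0.36 ± 0.06 (edgeR adjusted p = 6.34e-06), and its rise at 6 h without glucose (0.20) was lost without control replicate 2 (0.11) and with library totals (0.07). The pair shares the 22 bases printed above.

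Col4a5, a chain of kidney and epidermal basement membranes, was at 117 and 115 CPM in the control, 34.7 and 28.8 at 12 h without amino acids and 67.3 and 66.5 at 12 h without glucose. The control and the 12 h groups did not overlap, while the libraries at 3 h without glucose (119 and 108 CPM) overlapped the controls. Col4a5 fell at 12 h by 1.87 ± 0.07 without amino acids (edgeR adjusted p = 1.38e-19) and by 0.79 ± 0.07 without glucose (edgeR adjusted p = 3.51e-11). Unlike Col4a1 and Col4a2 it did not pass at 3 h without glucose (−0.03) and fell at 6 h (−0.47); that contrast between the chains was not tested.

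Col4a4 and Col4a3, partners of Col4a5 in the kidney filter, were near the limit of detection. Col4a4 was at 0.174 and 0.394 CPM in the control, 0.581 and 1.23, 2.34 and 1.94, and 1.59 and 1.62 CPM without amino acids, and at 0.116 to 0.611 CPM in all glucose libraries. Every library without amino acids exceeded both controls, with fold changes of 1.67 ± 0.47, 2.90 ± 0.44 and 2.49 ± 0.44 at 3, 6 and 12 h (edgeR adjusted p = 0.00283, 1.09e-06 and 1.28e-05). Col4a4 held 23 to 107 reads in each library without amino acids and 4 to 25 in each of the others. It met the read minimum only through the libraries without amino acids, so its inclusion and its rise there are not independent. At 3 h the call was lost without amino acid 3 h replicate 2 (1.02) or control replicate 1 (1.20), and without control replicate 2 the 3 values were 2.36, 3.59 and 3.18. Col4a3 ranged from 0.131 to 0.671 CPM and passed in none of the 12 comparisons; 563 of its exon bases are shared with C430014B12Rik in GRCm38.

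Of the 5 type IV chains, 1 rose and 3 fell at 12 h without amino acids (median −1.45; all genes: 34.9% and 32%), and 0 rose and 3 fell at 12 h without glucose (median −0.36; all genes: 30.4% and 28%). The 1 that rose was Col4a4, whose inclusion and rise are not independent. Endothelial cells lie on a basement membrane, and their markers summed to 4.21 to 5.08 CPM in the control and 12.6 to 23.6 CPM in the starved libraries, most of it Kdr. Pecam1 and Cdh5 were under 1 CPM in every library, and the part of these markers in the type IV values was not tested.

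Col18a1, the heparan sulphate collagen of the basement membrane zone from which endostatin is cut, was at 69.4 and 64.8 CPM in the control, 61.0 and 59.0, 46.8 and 44.2, and 23.4 and 23.8 CPM without amino acids, and 90.1 and 85.5, 75.6 and 75.9, and 55.7 and 56.4 CPM without glucose. The 2 starvations were on opposite sides of the control at 3 and 6 h and both below it at 12 h. It fell by 1.51 ± 0.07 at 12 h without amino acids (edgeR adjusted p = 3.71e-18), rose by 0.39 ± 0.06 at 3 h without glucose (edgeR adjusted p = 7.61e-06) and was −0.26 ± 0.06 at 12 h without glucose (edgeR adjusted p = 0.000718). The call at 3 h without amino acids (−0.16) was lost without amino acid 3 h replicate 1 (−0.19), replicate 2 (−0.14) or control replicate 1 (−0.11) and with DESeq2 (−0.13), and that at 6 h without glucose (0.18) without control replicate 2 (0.13), glucose 6 h replicate 1 (0.18) or replicate 2 (0.17) and with library totals (0.04).

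Col7a1, the chain of the anchoring fibrils that tie epidermis to dermis, rose and then returned. It was at 107 and 98.6 CPM in the control, 162 and 159, 197 and 191, and 92.6 and 76.9 CPM without amino acids, and 150 and 135, 171 and 162, and 94.0 and 88.6 CPM without glucose. All libraries at 3 and 6 h exceeded the controls and all at 12 h were below them. The fold change at 6 h was 0.91 ± 0.07 without amino acids (edgeR adjusted p = 3.31e-12) and 0.69 ± 0.07 without glucose (edgeR adjusted p = 3.46e-09), and −0.28 ± 0.07 at 12 h without amino acids (edgeR adjusted p = 0.000908), a call lost with library totals (−0.15). Its call at 12 h without glucose (−0.17) was lost without control replicate 1 (−0.11) or glucose 12 h replicate 2 (−0.13). It was higher without amino acids than without glucose at 6 h by 0.22 ± 0.07 (edgeR adjusted p = 0.00596), lost without glucose 6 h replicate 2 (0.18). Epithelial markers, which would accompany keratinocytes, a main source of type VII collagen, summed to 0.0755 to 0.455 CPM over all libraries.

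Type VI collagen forms beaded microfibrils around cells. Col6a1 was at 300.4 and 270.3 CPM in the control, 182 and 174, 96.2 and 90.8, and 31.6 and 31.1 CPM without amino acids, and 242 and 239, 160.2 and 156, and 69.1 and 71.6 CPM without glucose. Each time point lay below the one before it in both starvations with no overlap. The fold changes at 12 h were −3.19 ± 0.06 without amino acids (edgeR adjusted p = 3.77e-26) and −2.02 ± 0.06 without glucose (edgeR adjusted p = 8.23e-22), the latter the most negative of all 26 genes in that comparison.

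Col6a2 behaved alike, from 86.8 and 81.1 CPM in the control to 9.44 and 7.63 at 12 h without amino acids and 27.1 and 26.4 at 12 h without glucose, with fold changes of −3.30 ± 0.09 (edgeR adjusted p = 2e-23) and −1.65 ± 0.08 (edgeR adjusted p = 5.15e-17). Its call at 3 h without glucose (−0.19) was lost without control replicate 1 (−0.15), glucose 3 h replicate 1 (−0.19) or replicate 2 (−0.20) and with DESeq2 (−0.16).

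Col6a3, the largest type VI chain, departed from its partners without glucose. It was at 10.8 and 11.5 CPM in the control, 10.1 and 8.59, 5.48 and 3.68, and 1.59 and 1.06 CPM without amino acids, but 29.5 and 26.6, 30.7 and 30.6, and 11.8 and 10.5 CPM without glucose. The glucose libraries at 3 and 6 h exceeded every other library and those at 12 h overlapped the controls. It rose by 1.33 ± 0.13 at 3 h and 1.46 ± 0.13 at 6 h without glucose (edgeR adjusted p = 2.13e-09 and 2.74e-10), was 0.00 ± 0.13 at 12 h (edgeR adjusted p = 0.988) and fell by 3.08 ± 0.17 at 12 h without amino acids (edgeR adjusted p = 3.99e-15). All 3 type VI chains were lower without amino acids than without glucose at 3, 6 and 12 h.

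Fibril-associated collagens sit on the surface of fibrils. Col12a1, which links type I fibrils under load, was at 377 and 356 CPM in the control, 363 and 346, 285 and 281, and 124 and 112 CPM without amino acids, and 439 and 365, 339 and 336, and 274 and 254 CPM without glucose. The libraries at 3 h of both starvations overlapped the controls, and those at 12 h were below them. The fold changes at 12 h were −1.63 ± 0.07 (edgeR adjusted p = 7.91e-18) and −0.47 ± 0.07 (edgeR adjusted p = 7.9e-07). Col16a1, found near the cell surface and in cartilage, was at 69.3 and 61.8 CPM in the control, 16.9 and 14.7 at 12 h without amino acids and 29.3 and 26.9 at 12 h without glucose, with fold changes of −2.05 ± 0.08 (edgeR adjusted p = 3.28e-19) and −1.22 ± 0.08 (edgeR adjusted p = 4.62e-14). Its call at 3 h without amino acids (−0.19) was lost without amino acid 3 h replicate 2 (−0.13) or control replicate 1 (−0.11) and with DESeq2 (−0.16).

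Col20a1, a little-studied fibril-associated chain, went the other way. It was at 0.589 and 0.307 CPM in the control, 1.14 and 1.04, 6.99 and 5.51, and 12.0 and 12.0 CPM at 3, 6 and 12 h without amino acids, and 0.1204 and 0.173, 1.06 and 1.11, and 1.06 and 1.57 CPM without glucose. Without amino acids each time point exceeded the one before it with no overlap. The fold changes were 1.27 ± 0.31, 3.79 ± 0.26 and 4.73 ± 0.25 without amino acids (edgeR adjusted p = 0.000909, 1.47e-13 and 4.01e-16), and 1.28 ± 0.32 and 1.52 ± 0.30 at 6 and 12 h without glucose (edgeR adjusted p = 0.00142 and 8.69e-05). Its lower value at 3 h without glucose (−1.59) lost the call without control replicate 1 (−1.05) or glucose 3 h replicate 1 (−1.35). Per kilobase its level at 12 h without amino acids was 2.66 CPM. In GRCm38 its exons share 79 bases with BX649560.1.

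Col9a3, one of the type IX chains of cartilage, stayed between 0.144 and 2.29 CPM. It was at 0.720 and 0.854 CPM in the control, 2.29 and 1.76 at 6 h without amino acids and 0.421 and 0.144 at 3 h without glucose. It rose at 6 h without amino acids (1.36 ± 0.35, edgeR adjusted p = 0.00114). At 3 and 12 h without glucose it was lower (−1.48 and −1.02), but the first call was lost without control replicate 2 (−1.35) or glucose 3 h replicate 2 (−0.90), and the second without control replicate 1 (−1.14), control replicate 2 (−0.89) or glucose 12 h replicate 1 (−0.80); without glucose 3 h replicate 1 the value at 3 h was −2.42. Exons of Col9a3 and Tcfl5 share 234 bases in GRCm38.

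Short-chain collagens form hexagonal sheets, as in the cornea and around vessels. Col8a1 was at 95.3 and 107 CPM in the control, 154 and 153, 72.8 and 76.2, and 8.95 and 9.01 CPM without amino acids, and 203 and 173, 153.1 and 153.2, and 57.5 and 59.0 CPM without glucose. Both starvations were above the control at 3 h and below it at 12 h. The fold changes were 0.60 ± 0.07 and 0.90 ± 0.07 at 3 h (edgeR adjusted p = 3.58e-09 and 2.64e-12) and −3.49 ± 0.08 and −0.80 ± 0.07 at 12 h (edgeR adjusted p = 6.43e-25 and 2.33e-11), without amino acids and without glucose in each case. From 3 to 12 h without amino acids it fell by 4.10 ± 0.08, the most negative value of the 26 genes (edgeR adjusted p = 1.37e-26).

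Col8a2, its partner chain, was at 2.84 and 2.82 CPM in the control, 1.46 and 1.32, 0.756 and 0.907, and 1.67 and 2.001 CPM without amino acids, and 1.38 and 1.73, 1.09 and 1.39, and 1.11 and 0.956 CPM without glucose. All starved libraries were below both controls, and those without amino acids were higher at 12 h than at 6 h. It fell at 6 h without amino acids by 1.76 ± 0.27 (edgeR adjusted p = 1.75e-06) and at 12 h without glucose by 1.44 ± 0.27 (edgeR adjusted p = 3.38e-05). Its call at 12 h without amino acids (−0.62) was lost without amino acid 12 h replicate 1 (−0.54), control replicate 1 (−0.62) or control replicate 2 (−0.63), and that at 3 h without glucose (−0.86) without glucose 3 h replicate 1 (−0.71).

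Col10a1, the collagen of hypertrophic cartilage, was at 3.60 and 3.11 CPM in the control, 3.36 and 2.83, 1.42 and 1.67, and 0.508 and 0.415 CPM without amino acids, and 4.82 and 3.99, 2.79 and 2.38, and 1.86 and 1.97 CPM without glucose. The libraries at 12 h without amino acids were the lowest, at a fold change of −2.86 ± 0.26 (edgeR adjusted p = 6.97e-11) against −0.81 ± 0.22 at 12 h without glucose (edgeR adjusted p = 0.00206). Its exons share 18 bases in GRCm38 with Nt5dc1, which had fold changes of −0.93 at 6 h and −0.12 at 12 h without amino acids. Of all 26 genes, 17 share no annotated exon base with another gene.

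The make-up of the collagen message pool differed as the chains moved apart. As shares of the summed CPM per kilobase of the 26 genes, type I made up 53.1% ± 0.68 (SD, n = 2) in the control, 26.6% ± 0.29 at 12 h without amino acids and 39.2% ± 0.99 at 12 h without glucose. Type V made up 18.0% ± 0.30, 36.4% ± 0.021 and 28.6% ± 0.78 in the same groups, and type IV 12.6% ± 0.22, 18.7% ± 0.16 and 17.5% ± 0.024. Type VI made up 7.98% ± 0.093 in the control and 4.23% ± 0.037 and 4.10% ± 0.050 at 12 h. Type V exceeded type I at 6 h without amino acids (34.4% against 28.0%) and at 12 h, and not at any time without glucose, and Col5a2 alone was 24.4% of the pool at 12 h without amino acids against 11.1% in the control. The shares were not tested and are given as a description.

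**Figure D4:**
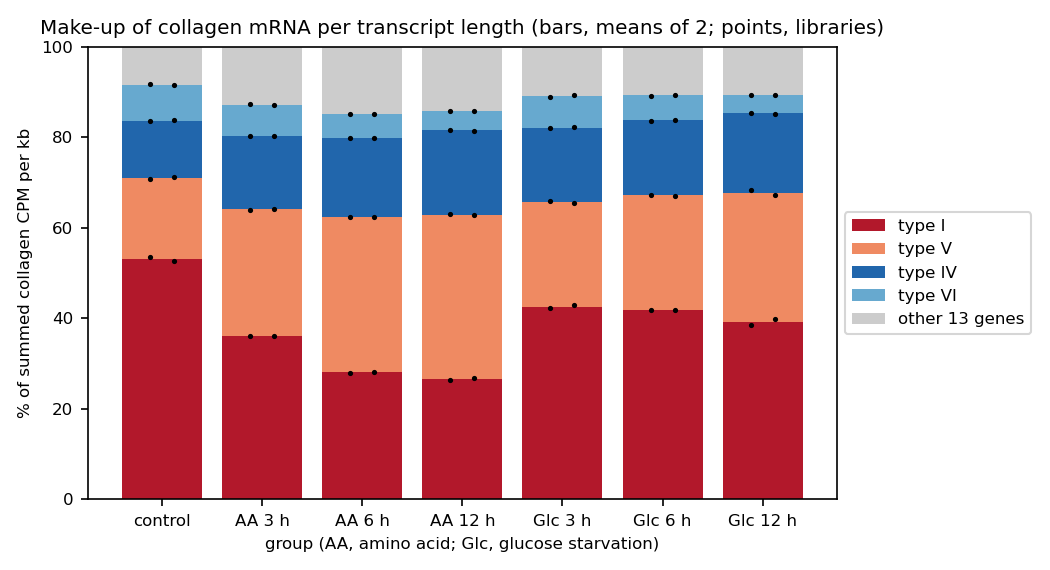
Stacked bars, 1 for each of the 7 groups (mean of 2 libraries), of the percentage of the summed CPM per kilobase of the 26 collagen genes taken by types I, V, IV and VI and by the other 13 genes; points mark the segment tops in single libraries. Type I takes 53.1% on average in the control and 26.6% at 12 h without amino acids, where type V takes 36.4%.

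Ratios between partner chains moved in the same libraries. Col1a1 to Col1a2, per kilobase, was 1.84 ± 0.064 in the control, 2.10, 3.16 and 5.27 ± 0.20 at 3, 6 and 12 h without amino acids and 1.96, 2.10 and 2.44 without glucose. Every starved library lay above both controls. Col5a1 to Col5a2 was 0.566 in the control and 0.290 at 12 h without amino acids, against 0.466 at 12 h without glucose, where it had been 0.687 at 6 h. Col5a3 to Col5a1 was 0.108 in the control, 0.692 at 12 h without amino acids and 0.306 at 12 h without glucose.

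Col4a1 to Col4a2 was 2.17 ± 0.16 in the control and lay between 2.08 and 2.30 in the starved groups other than 12 h without amino acids, where both libraries were at 1.63. Col6a1 to Col6a2 was 3.27 in the control, 3.58 ± 0.50 at 12 h without amino acids and 2.54 at 12 h without glucose, where both libraries were below every other one. Col6a3 to Col6a1 was 0.0179 in the control, 0.0192 to 0.0239 without amino acids and 0.0532 to 0.0882 without glucose, with no overlap between the starvations. These ratios are message levels and say nothing of chains in the protein.

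**Figure D5:**
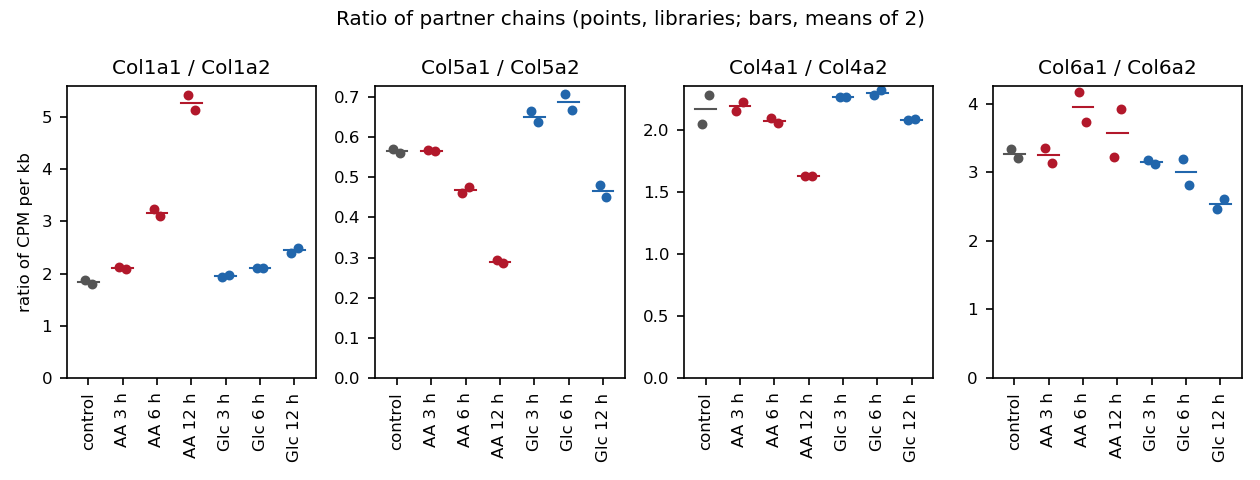
Ratio of CPM per kilobase between partner chains (Col1a1 to Col1a2, Col5a1 to Col5a2, Col4a1 to Col4a2, Col6a1 to Col6a2) by group, with each library as a point and the mean of 2 as a short line; the axes start at 0. Col1a1 to Col1a2 averages 1.84 in the control and 5.27 at 12 h without amino acids, while Col4a1 to Col4a2 stays near 2.17 apart from 1.63 at 12 h without amino acids.

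The times were also compared within each starvation. Between 3 and 12 h without amino acids 1 gene rose, Col20a1, and 21 fell, where 35.5% of all genes rose and 32.9% fell, with a median of −1.71 beside 0.04 for all genes. Between 3 and 12 h without glucose 2 rose, Col20a1 and Col4a4, and 20 fell (all genes: 31.8% and 25.5%), with a median of −0.81 beside 0.07. The rise of Col4a4 without glucose (1.35) was lost without glucose 12 h replicate 2 (1.16) or glucose 3 h replicate 2 (0.82), and was 2.17 without glucose 3 h replicate 1. The change from 3 to 12 h was more negative without amino acids than without glucose for 18 genes and more positive for 2, Col5a3 and Col8a2, where all genes gave 25.7% and 21.7%; the call for Col8a2 (0.98) was lost in turn without 6 of the 8 libraries, at 0.80 to 1.10, and with DESeq2 (0.97), and that for Col7a1 (−0.28) with library totals (−0.03) and without amino acid 12 h replicate 2 (−0.15), amino acid 3 h replicate 1 (−0.26), glucose 12 h replicate 1 (−0.23) or glucose 3 h replicate 2 (−0.22). Col8a1 (−2.40 ± 0.10, edgeR adjusted p = 2.11e-17), Col1a2 (−2.04 ± 0.08, edgeR adjusted p = 7.65e-19) and Col3a1 (−1.86 ± 0.25, edgeR adjusted p = 2.95e-07) had the most negative differences. The mean over libraries was lowest at 12 h for 19 of the 26 genes without amino acids and for 20 without glucose.

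The machinery that modifies and folds collagen in the endoplasmic reticulum parted between the starvations. Of 18 tested genes 0 rose and 17 fell at 12 h without amino acids (median −0.87; all genes: 34.9% and 32%), while 7 rose and 6 fell at 12 h without glucose (median −0.03; all genes: 30.4% and 28%). Serpinh1, the collagen chaperone Hsp47, was at 1107 CPM in the control, 499 at 12 h without amino acids and 1269 at 12 h without glucose, with fold changes of −1.15 ± 0.06 and 0.20 ± 0.06 (edgeR adjusted p = 2.69e-16 and 0.00524), the second lost without control replicate 2 (0.10) and with library totals (0.09). P4hb, the beta subunit of prolyl 4-hydroxylase, was at 928, 587 and 1269 CPM (−0.66 and 0.45), and Ppib, a prolyl isomerase, at 255, 130.3 and 334 CPM (−0.97 and 0.39), all called. Sparc (−2.14 and −0.28) and Fkbp10 (−1.24 and −0.42) did not part in direction and were called lower in both starvations. Compared directly at 12 h, 1 of the 18 was higher and 15 were lower without amino acids than without glucose (all genes: 32.5% and 31.6%).

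Of 12 tested export genes 2 rose and 8 fell at 12 h without amino acids (median −0.38; all genes: 34.9% and 32%), and 5 rose and 2 fell at 12 h without glucose (median 0.04; all genes: 30.4% and 28%). Compared directly at 12 h, 1 was higher and 9 were lower without amino acids (all genes: 32.5% and 31.6%). Sec31a, of the outer coat of COPII carriers, had fold changes of −1.004 and 0.37, and Mia2, a cargo receptor at exit sites, rose in both (0.81 and 0.83).

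Genes that trim and crosslink procollagen outside the cell mostly fell in both. Of 12 tested, 0 rose and 10 fell at 12 h without amino acids (median −1.64; all genes: 34.9% and 32%), and 1 rose and 8 fell at 12 h without glucose (median −0.57; all genes: 30.4% and 28%). Pcolce, which enhances removal of the C-propeptide, was at 543 CPM in the control, 62.8 at 12 h without amino acids and 258 at 12 h without glucose, with fold changes of −3.11 ± 0.06 and −1.07 ± 0.06 (edgeR adjusted p = 4.76e-26 and 1.03e-15). The C-proteinase Bmp1 fell by 1.26 and 0.53, and the crosslinking oxidases Loxl1 (−1.90 and −1.58) and Loxl2 (−1.38 and −1.20) fell in both.

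Of 10 tested fibril-organising proteins 1 rose and 7 fell at 12 h without amino acids (median −1.84; all genes: 34.9% and 32%), and 2 rose and 5 fell at 12 h without glucose (median −0.18; all genes: 30.4% and 28%). The proteoglycan Bgn had a fold change of −1.68 without amino acids, at 898 CPM in the control and 280 at 12 h, and Thbs1 fell in both (−3.11 and −2.91). Fn1, the fibronectin on which fibrils are laid, had 0.20 at 12 h without amino acids, a call lost without amino acid 12 h replicate 1 (0.08) or control replicate 2 (0.13). Among 9 collagen receptors 3 rose and 3 fell at 12 h without amino acids (all genes: 34.9% and 32%) and 3 rose and 5 fell without glucose (all genes: 30.4% and 28%): Ddr2 rose in both (0.52 and 0.98) and Ddr1 fell in both (−1.22 and −0.65). Among 7 tested collagen-degrading proteases 3 rose and 2 fell in each, beside the same shares of all genes; Mmp2 fell (−1.76 and −1.01), as did Mmp14 (−1.77 and −1.77), while the collagenase Mmp13 rose from 0.1203 CPM to 1.23 and 0.706 (3.33 and 2.48), values that became 4.18 and 3.33 without control replicate 2.

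Of 19 tested regulators of collagen transcription 9 rose and 9 fell at 12 h without amino acids (all genes: 34.9% and 32%), and 2 rose and 13 fell without glucose (all genes: 30.4% and 28%). Sp1, a GC-box factor of type I promoters, had fold changes of 0.50 and −0.49, the CCAAT factor subunit Nfya 0.31 and −0.70, and Skil, a repressor of Smad signalling, 1.31 and −0.24, the last lost without control replicate 2 (−0.18) or glucose 12 h replicate 2 (−0.18). Ski was instead called lower in both starvations (−0.14 and −0.86). Of 10 listed genes of proline and glycine synthesis 9 were tested and 1 was not analysed here: 8 rose and 0 fell at 12 h without amino acids (median 1.03; all genes: 34.9% and 32%), and 9 rose and 0 fell at 12 h without glucose (median 1.40; all genes: 30.4% and 28%). Aldh18a1, which opens proline synthesis from glutamate, was at 147.5 CPM in the control, 475 at 12 h without amino acids and 604 at 12 h without glucose, with fold changes of 1.69 ± 0.05 and 2.03 ± 0.05 (edgeR adjusted p = 9.04e-22 and 3.84e-23). Psat1 of serine synthesis rose alike (1.41 and 1.40).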

How the data were processed

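RNA sequencing covered 14 libraries of mouse embryonic fibroblasts. The deposited table holds whole-number read counts per transcript for 67457 rows, made by the authors with STAR and bedtools on GRCm39, per the submitters' processing notes; versions, the use of strand, the handling of reads that map to several places and the sharing of reads between transcript rows are not given in the sources used here. For each symbol the transcript row with the highest sum over the 14 libraries stood for the gene, as 13432 symbols had several rows; 58 rows naming no gene held 0% of reads and were left out. Counts were tested with edgeR 4.0.16 (R 4.3.3, limma 3.58.1): filterByExpr, TMM factors, robust quasi-likelihood fit over all 7 groups (biological coefficient of variation 5.78%) and Benjamini-Hochberg adjustment over all 17696 genes within each of 12 comparisons, two-sided. The pooled spread comes from 2 libraries a group. The procedure was also run on simulated counts drawn with the same spread for every gene. That run cannot show how the test behaves at the spread of these libraries, and its outcome is not used here. CPM per kilobase used the deposited transcript lengths. Replicates of each group differed by more than counting noise (chi-square per degree of freedom 3.45 to 14.6).

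Alternatives were RLE factors, library totals, DESeq2 1.42.0, no filter, a stricter filter, a replicate block, only the libraries compared, the longest transcript row, each library left out, and, added after seeing the data, only genes sharing no exon base in GENCODE's GRCm38 annotation. The collagen genes and the other gene lists were chosen with earlier results of these data known. Every collagen gene could be named; full statistics went to those averaging a log2 CPM of 5 or more and to the 3 most positive and 3 most negative calls of a comparison, and up to 5 of the most abundant called genes of each other list were open to naming. Markers of osteoblasts, skeletal muscle, macrophages and Schwann cells were also summed. Promoters came from RefSeq (GRCm38.p6).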

Additional observations from a re-analysis of the deposited data

Results flagged for a closer look

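The change from 3 to 12 h differed between the 2 starvations, by edgeR's interaction test at an adjusted p under 0.05, for 20 of the 26 collagen genes, beside 21.7% of all genes higher and 25.7% lower; values are the log2 change without amino acids minus that without glucose. Among fibrillar chains it was −2.04 for Col1a2, −1.86 for Col3a1, −1.36 for Col5a1, −1.16 for Col11a1, −1.04 for Col1a1 and −0.88 for Col5a2. In the basement membrane zone it was −0.92 for Col4a1, −0.89 for Col4a5, −0.69 for Col18a1 and −0.62 for Col4a2. Type VI chains had −1.50 (Col6a3), −1.17 (Col6a2) and −0.73 (Col6a1), and fibril-associated chains −0.98 (Col12a1) and −0.69 (Col16a1). Col8a1 had −2.40, Col10a1 −1.53 and Col7a1 −0.28, and the values above 0 were 0.37 for Col5a3 and 0.98 for Col8a2.

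Of these, the call for Col7a1 was lost with library totals (−0.029) and without amino acid 12 h replicate 2 (−0.15), amino acid 3 h replicate 1 (−0.26), glucose 12 h replicate 1 (−0.23) or glucose 3 h replicate 2 (−0.22). That for Col8a2 was lost in turn without 6 of the 8 libraries involved, at values of 0.80 to 1.10, and with DESeq2 (0.97), with no filter (0.99) and with only the libraries compared (0.99).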

How the results depend on the processing

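Counts of called collagen genes stayed within 1.5 times of the reported ones in 156 of 160 comparisons with an alternative. The 4 exceptions all came from counting only the 17 genes with no shared exon base: 11 at 3 h and 14 at 12 h without glucose, and 14 at 3 h and 15 at 6 h between starvations. There fewer genes were counted from the same fit, so smaller counts follow and cannot show an effect of overlap. Leaving out 1 library gave 14 to 18 calls at 3 h without amino acids and 14 to 15 (of 18) at 3 h without glucose. No pairing by replicate number was seen: over 21 pairs of groups, deviations of same-numbered libraries correlated at −0.0352 to 0.0537. The correlation weighted all tested genes alike, so it cannot exclude a pairing. With the replicate block the counts were 18 (from 17) at 3 h without amino acids and 19 (from 18) at 3 h without glucose, the other 10 being unchanged.

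Scaling by library totals moved the median of all genes by −0.18 and −0.17 at 3 h without amino acids and glucose and by 0.24 between starvations at 12 h. With it the median at 3 h without glucose was −0.067, Col5a1 and Col5a2 were −0.078 and −0.079 at 3 h without amino acids, Col12a1 −0.034 and Col5a2 −0.019 at 3 h and Col5a2 −0.10 at 6 h without glucose, and Col7a1 0.13 at 12 h and Col16a1 0.051 at 6 h between starvations. The last was also 0.023 with DESeq2 and with RLE factors, 0.0035 with only the libraries compared and 0.028 with the stricter filter, and ranged from −0.021 to 0.017 with 1 library left out. At 3 h without glucose, leaving out 1 library gave −0.0039 to 0.26 for Col12a1, −0.14 to 0.025 for Col16a1 and −0.11 to 0.031 for Col4a5, and at 6 h −0.0058 to 0.067 for Col5a2. Of these only Col5a2 at 3 h without glucose had been called. Of 336 called values for named genes, 40 lost the call under some alternative, 38 of them without 1 library; the cause was not tested. Leaving out 1 library left 1 in its group, and some calls were lost at a nearly unchanged value. Genes under 1 CPM, such as Col4a3, rest on few reads, and the depth limits what they can show.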

Other observations

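Among genes outside the rule, 17 collagen symbols stayed under 140 reads over the 14 libraries. They included the transmembrane chains Col13a1 (4 reads), Col23a1 (55), Col25a1 (40) and Col17a1 (104), the multiplexin Col15a1 (4) and the type IX chains Col9a1 (0) and Col9a2 (11), both partners of Col9a3. Col14a1, a fibril-associated chain of tendon and skin, held 99 reads. Osteoblast markers summed to 0.427 to 2.58 CPM over the libraries and macrophage markers to 14.3 to 23.8 CPM. Skeletal muscle markers summed to 1.32 to 7.20 CPM and Schwann cell markers to 0.556 to 3.27 CPM.

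Slc19a1, a folate carrier antisense to Col18a1 that shares 0 of its exon bases in GRCm38, had log2 fold changes of 1.22 at 3 h and −0.46 at 12 h without amino acids and 0.85 at 12 h without glucose. The values of Col18a1 at those times were −0.16, −1.51 and −0.26.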
